A study of Neurospora crassa OR74A with 12 samples.

Results

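H2O2-treated wild type (WT) and the untreated upf-1 knockout (upf-1KO) of the filamentous fungus Neurospora crassa were compared with each other directly. The comparison used 6 of the 12 RNA-seq libraries of the series, 3 from the WT strain exposed to 20 mM H2O2 and 3 from upf-1KO without treatment, chosen by their labels. It addressed where loss of UPF-1 alone brought a transcript to the level that peroxide gave in the WT strain, and where it did not. The 3 libraries of untreated WT gave the reference level, and the 3 libraries of H2O2-treated upf-1KO entered the filter on low counts, the scaling and the estimate of the spread. All libraries came from mycelium labelled OR74A. The study used wild types with and without the ras-1 bd allele, and its methods also give all strains the same bd background. They do not name the wild type behind these libraries. The upf-1KO strain was made by gene replacement with a hygromycin marker in a bd host with a mutated ku70 gene, so the 2 groups differed in strain as well as in treatment, and the parts of the 2 cannot be told apart in a direct contrast. A replicate was RNA from its own culture pool. How long the RNA-seq cultures were exposed to H2O2 was not given in the sources used here.

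UPF-1 is an RNA helicase at the core of nonsense-mediated mRNA decay (NMD), a pathway that degrades transcripts whose translation stops early, among them mRNAs with upstream open reading frames (uORFs), long 3′ untranslated regions or an intron behind the stop codon. Peroxide is scavenged in this fungus by several catalases, of which CAT-3 is the main enzyme of growing hyphae and CAT-1 that of conidia, and by glutathione- and thioredoxin-dependent enzymes. Transcripts that rise both on NMD loss and on peroxide can therefore be read at the same gene in the 2 states.

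The 3 upf-1KO libraries held 6727198 to 7474127 counts and the 3 H2O2-treated WT libraries 5891672 to 7232998. Ribosomal RNA genes took 0.695% to 0.755% of the counts in upf-1KO and 1.22% to 16.1% in H2O2-treated WT, and the 10 most abundant genes 11.8% to 12.2% and 18.8% to 29.8%. The TMM scaling factors were 1.49 to 1.53 and 0.481 to 0.602, so the scaling sets the zero of the comparison. With TMM factors the median of all genes tested was a log2 fold change (H2O2-treated WT less upf-1KO) of −0.18, and with library totals alone it was −1.62. The list medians below are given relative to that median unless stated, a quantity that moved by at most 0.0968 for any list when library totals replaced TMM factors. Values of single genes are normalized counts under TMM scaling.

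Read counts of upf-1 (NCU04242, NC12 chromosome V, 5327537 to 5332820) followed the labels. Its normalized counts were 161, 177 and 160 in upf-1KO, 1050, 1367 and 1086 in H2O2-treated WT and 531 to 575 in untreated WT, and the 3 ranges did not overlap. By RT-qPCR, the paper reported no change of upf-1 mRNA in WT after H2O2. With library totals upf-1 under H2O2 was no higher than in untreated WT (log2 difference −0.19), but still 1.36 above upf-1KO. Reads from the locus thus remained in the knockout at a lower level. mus-51 (NCU08290, chromosome IV, 2520412 to 2522837), which encodes the Ku70 homologue of DNA end joining, had no read in any of the 3 upf-1KO libraries and 119, 197 and 198 normalized counts in H2O2-treated WT. Against a floor of 3 counts per upf-1KO library this was at least 80.1-fold higher, and it marks the strain and not the treatment, since untreated WT stood at 145 to 175.

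The tissue label was checked against marker genes. Of the vegetative hypha markers, hex-1, so and wsc were all read in all 6 libraries, summing to 13558 to 15075 normalized counts in upf-1KO and 17886 to 27746 in H2O2-treated WT. Most of that sum came from hex-1, while so stood at 793 to 873 and 325 to 347 counts. Of the 3 genes 1 was called lower and none higher, and of a longer list of 6 that adds ham-2, ham-3 and ham-4, 2 were lower, none higher and 2 within 2-fold. All 8 markers of conidia and aerial hyphae were tested. Their sum, most of it from the hydrophobin gene eas, was 60761 to 65106 in upf-1KO and 13698 to 15244 in H2O2-treated WT, and of the 8 genes 4 were called lower and none higher. The 5 markers of sexual structures summed to 1620 to 1666 and 658 to 796. In bulk RNA, fewer cells of a type and less RNA per cell cannot be told apart, and the part of these differences in the results below was not tested.

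Across 7878 genes tested, 1545 were higher in H2O2-treated WT (19.6% of genes tested) and 2075 were lower (26.3%), at a log2 fold change past 1 and an unadjusted p below 0.05 in edgeR's quasi-likelihood test. With Benjamini-Hochberg adjusted p below 0.05 in addition, 1523 (19.3%) and 1997 (25.3%) remained. A further 1667 genes (21.2%) lay within 2-fold, meaning that the 95% interval of the log2 fold change was wholly between −1 and 1. The remaining 2591 genes met neither definition, so that the 2 states were neither shown to differ by 2-fold nor shown to be alike within it. These shares of all genes tested are the reference for the counts of gene lists below. Against untreated WT, 831 genes were higher (10.5%) and 210 lower (2.67%) in upf-1KO, and 1500 higher (19%) and 1922 lower (24.4%) under H2O2, counts that share the untreated libraries. The scaling decided the split of the direct comparison: with library totals alone 332 genes were higher and 5136 lower, and with a trend of counts on gene length removed 1816 were higher and 1534 lower.

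Replicates of H2O2-treated WT were more dispersed than those of upf-1KO. Over the 5505 genes whose mean reached 100 normalized counts, the median coefficient of variation was 21.4% in H2O2-treated WT and 5.39% in upf-1KO. In 462 of these genes replicate 1 of H2O2-treated WT was at least 2-fold above both other replicates, against 9 genes for replicate 2 and 8 for replicate 3. Values without replicate 1 are therefore given below where they changed a result.

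Catalase genes divided into 3 patterns. cat-3 (NCU00355, chromosome III, 3561379 to 3564584) reached nearly the same level in both states, cat-1 was highest under peroxide, and cat-4 rose in upf-1KO alone. cat-3 counts were 3026, 2939 and 2931 in upf-1KO (2965 ± 52.6, SD, n = 3), 2339, 2478 and 2328 in H2O2-treated WT (2382 ± 83.8) and 679 to 823 in untreated WT. The 2 groups did not overlap, with upf-1KO higher, but the difference was small: its log2 fold change was −0.32 ± 0.17 (SE), with an interval of −0.68 to 0.05 and edgeR's adjusted p = 0.12. The gene was thus within 2-fold with TMM factors, while with library totals the log2 fold change was −1.76 and it was not. Relative to untreated WT, cat-3 was higher by 2.02 on the log2 scale in upf-1KO (edgeR adjusted p = 1.7e-05) and by 1.71 under H2O2 (adjusted p = 1.3e-05), contrasts that share the untreated WT libraries. With library totals these values were 2.22 and 0.46.

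cat-1 (NCU08791) had 1375, 1231 and 1239 counts in upf-1KO and 4938, 1793 and 1709 in H2O2-treated WT, against 425 to 532 in untreated WT. All 3 peroxide libraries were above all upf-1KO libraries, and replicate 1 was far above the other two. The log2 fold change was 1.14 ± 0.33 (SE, edgeR adjusted p = 0.012), but without replicate 1 it was 0.40, below the 2-fold limit, and with library totals it was −0.26.

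cat-2 (NCU05770), a catalase-peroxidase gene, had 350, 304 and 291 counts in upf-1KO and 643, 169 and 168 in H2O2-treated WT, against 62.4 to 86.4 in untreated WT. The groups overlapped, and the interval of the log2 fold change ran from −1.39 to 1.52, so the difference between the states was not resolved. cat-4 (NCU05169), a small-subunit catalase gene, stood at 435, 469 and 417 in upf-1KO and at 46.2, 115 and 135 in H2O2-treated WT, a range that spanned the 69.5 to 103 of untreated WT. Its log2 fold change was −2.17 ± 0.35 (SE, adjusted p = 0.00032), and relative to untreated WT it was 2.34 in upf-1KO and 0.17 under H2O2 (adjusted p = 0.7).

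**Figure D1:**
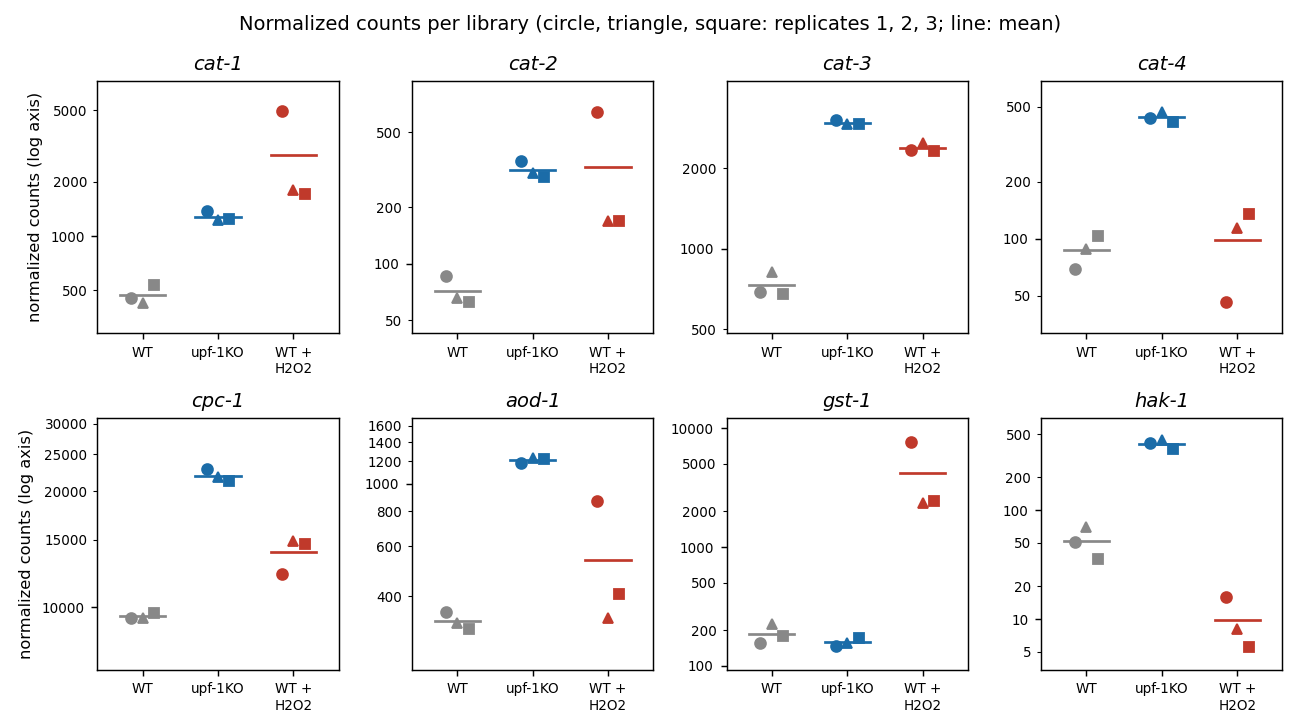
Normalized counts (log axis) of 8 genes in each library of untreated WT, untreated upf-1KO and H2O2-treated WT, with symbols for replicates 1 to 3 and a line at each mean. cat-3 lies between 2328 and 3026 in all 6 libraries of the comparison, whereas gst-1 is at least 2342 in all H2O2-treated libraries and at most 172 in upf-1KO.

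3 further genes, cpc-1, aod-1 and ngf-1, were lower in H2O2-treated WT than in upf-1KO. cpc-1 (NCU04050), which encodes the transcriptional activator of cross-pathway control of amino acid biosynthesis, had 22859, 21796 and 21265 counts in upf-1KO, 12171, 14858 and 14630 in H2O2-treated WT and 9357 to 9645 in untreated WT. The peroxide-treated libraries were thus placed between the other two groups, without overlap, and the log2 fold change was −0.66 ± 0.17 (SE, adjusted p = 0.0061), with an interval of −1.04 to −0.29. This order rests on the scaling, since under H2O2 the log2 difference of cpc-1 from untreated WT was 0.55 with TMM factors and −0.69 with library totals. aod-1 (NCU07953), the alternative oxidase of mitochondria, had 1181, 1228 and 1218 counts in upf-1KO and 871, 336 and 406 in H2O2-treated WT, a log2 fold change of −1.16 ± 0.28 (SE, adjusted p = 0.0035), with untreated WT at 307 to 353. With library totals aod-1 under H2O2 was at −0.48 from untreated WT. Every peroxide-treated library was below every upf-1KO library. ngf-1 (NCU10847), a histone acetyltransferase gene whose locus overlaps 2 others, had 310, 270 and 261 counts in upf-1KO and only 23.1, 30.02 and 20.3 in H2O2-treated WT, a log2 fold change of −3.53 ± 0.46 (SE, adjusted p = 6.5e-05). Relative to untreated WT, ngf-1 was at 0.81 on the log2 scale in upf-1KO and at −2.72 under H2O2 (−3.96 with library totals). By RT-qPCR, the paper reported a rise of ngf-1 mRNA in WT after H2O2, the opposite direction. In a count without strand, reads of ngf-1 cannot be told apart from those of the overlapping loci.

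Of the other NMD factors, upf-3 was called lower in H2O2-treated WT and upf-2 did not reach 2-fold. upf-2 (NCU05267) had 681, 568 and 574 counts in upf-1KO and 323, 379 and 397 in H2O2-treated WT (log2 fold change −0.73 ± 0.15 SE, adjusted p = 0.0012), a value that turned to 0.18 (adjusted p = 0.47) with the length trend removed. upf-3 (NCU03435) had 375, 412 and 380 against 165, 117 and 107 counts (log2 fold change −1.58 ± 0.42 SE, adjusted p = 0.0077), or −0.93 and short of 2-fold with the length trend removed. Relative to untreated WT under H2O2, upf-2 was at −0.35 and upf-3 at −1.54 on the log2 scale, or 0.74 and −0.90 with the length trend removed. The paper reported no change of either mRNA by RT-qPCR in WT after H2O2. For both genes every peroxide-treated library was below every upf-1KO library, as in 41.5% of all genes tested.

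The study drew 2 lists of transcripts raised by upf-1 loss and by H2O2 in WT, 107 loci that H2O2 raised further in upf-1KO and 161 that it did not. Both were chosen on these libraries, upf-1KO and H2O2-treated WT included, so that their members' levels over untreated WT are no independent evidence; the direct distance between the 2 states was not itself among the criteria as described. Of the 262 members tested, 66 lay within 2-fold (25.2%), 53 were higher in H2O2-treated WT (20.2%), 27 were lower (10.3%) and 116 met neither definition. Among all genes tested 21.2% lay within 2-fold, 19.6% were higher and 26.3% lower, so the shares within 2-fold and higher were near those of all genes. The median log2 fold change of the 262 was 0.23, which is 0.42 above that of all genes tested, and it was 0.05 below that of all genes with the length trend removed. Side by side, the median log2 difference from untreated WT was 1.47 in upf-1KO and 1.80 under H2O2.

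The 2 lists differed in the direct contrast. Among 106 tested members that H2O2 raised further in upf-1KO, 43 were higher in H2O2-treated WT, 2 lower and 18 within 2-fold, with a median log2 fold change of 0.83. Among 156 that it did not raise further, 10 were higher, 25 lower and 48 within 2-fold, with a median of 0.00. Membership itself used the upf-1KO libraries, so this difference is a description and was not tested. Without replicate 1 of H2O2-treated WT the first list had 33 members higher and 3 lower, and the second 7 higher and 26 lower. With library totals, 9 members of both lists together were higher and 143 lower. The number within 2-fold was the least stable, at 41 of both lists without replicate 2 of upf-1KO, with the first list at 10 or 11 without any single upf-1KO library or replicate 3 of H2O2-treated WT.

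By the sequence features that the study assigned, 156 tested members of the 2 lists had a uORF, of which 31 were higher in H2O2-treated WT, 19 lower and 41 within 2-fold. Of 36 with a long 3′ untranslated region 4 were higher, 2 lower and 13 within 2-fold, and of 14 with an intron in the 3′ untranslated region 1 was higher, none lower and 6 within 2-fold. Of 90 with no known feature, 22 were higher, 7 lower and 20 within 2-fold. The median log2 fold change was 0.12, 0.37, 0.32 and 0.44 for the 4 classes. Of all genes tested, 19.6% were higher, 26.3% lower and 21.2% within 2-fold.

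The 8 genes of these lists with the tightest bound on the difference included 2 enzymes of protein phosphorylation. ck-1a (NCU00685), casein kinase I and a kinase of the clock protein FRQ, had 9447, 9390 and 9735 counts in upf-1KO and 8553, 10595 and 11348 in H2O2-treated WT, against 3802 to 4144 in untreated WT. The 2 states overlapped, and the interval of the log2 fold change was −0.40 to 0.59. pp2A (NCU06563), a protein phosphatase 2A-like gene that overlaps another locus, had 349, 365 and 345 counts against 361, 366 and 412, with an interval of −0.26 to 0.47 and untreated WT at 173 to 211. NCU03404, an acid phosphatase, had 145, 161 and 139 against 181, 131 and 137, with untreated WT at 54.6 to 69.5. In each of these genes the 2 states overlapped, and with TMM factors both were above every untreated WT library. With library totals the log2 difference under H2O2 from untreated WT was 0.11 for ck-1a, −0.24 for pp2A and 0.04 for NCU03404, so the rise under H2O2 rests on the scaling.

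NCU00207, an oxidoreductase, had 106, 101 and 128 counts in upf-1KO and 117, 117 and 116 in H2O2-treated WT, above the 50.7 to 55.5 of untreated WT with TMM factors and −0.09 on the log2 scale from it with library totals. The other 4 of the 8, NCU05771, NCU04605, NCU16742 and NCU09421, are hypothetical proteins with log2 fold changes of 0.05, 0.04, 0.13 and 0.10, all with intervals inside −0.38 to 0.58. All 8 genes kept an interval within 2-fold when any single library was left out, and lost it with library totals, where the log2 fold changes ran from −1.30 (NCU16742) to −1.41 (NCU03404). ck-1a also lost it with the length trend removed, where its log2 fold change was 0.90.

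In 4 genes of these lists H2O2-treated WT went far beyond upf-1KO. NCU04823, an NADP-dependent alcohol dehydrogenase gene, had 382, 433 and 364 counts in upf-1KO, 14146, 3878 and 4775 in H2O2-treated WT and 147 to 218 in untreated WT. Every peroxide-treated library was above every upf-1KO library, and the log2 fold change was 4.27 ± 0.39 (SE, adjusted p = 1.2e-05), 3.42 without replicate 1. NCU07082, an aspartyl-tRNA synthetase gene, had 288, 271 and 247 against 6114, 2058 and 1966 counts (log2 fold change 3.65 ± 0.36 SE, adjusted p = 1.7e-05), 2.86 without replicate 1. The other two, NCU02142, a hypothetical protein, and NCU01598, a methyltransferase, had log2 fold changes of 3.81 and 3.80, and of 2.56 and 2.50 without replicate 1.

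In another 4 genes upf-1KO went beyond the peroxide-treated state. ccg-13 (NCU08907), a clock-controlled gene, had 1642, 1955 and 1938 counts in upf-1KO, 391, 442 and 464 in H2O2-treated WT and 66.1 to 113 in untreated WT. The 3 groups were apart, and the log2 fold change between the 2 states was −2.09 ± 0.21 (SE, adjusted p = 1.2e-05). NCU00868, a hypothetical protein, had 1394, 1255 and 1297 against 389, 267 and 229 counts (log2 fold change −2.15 ± 0.21 SE, adjusted p = 1.2e-05). NCU06327, a benzoate 4-monooxygenase cytochrome P450, and NCU08351, a hypothetical protein that overlaps a neighbour, had log2 fold changes of −1.91 and −2.51. With library totals the peroxide-treated level of ccg-13 stayed 1.07 above untreated WT on the log2 scale, while NCU00868, NCU06327 and NCU08351 were at −0.14, 0.03 and 0.12.

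**Figure D2:**
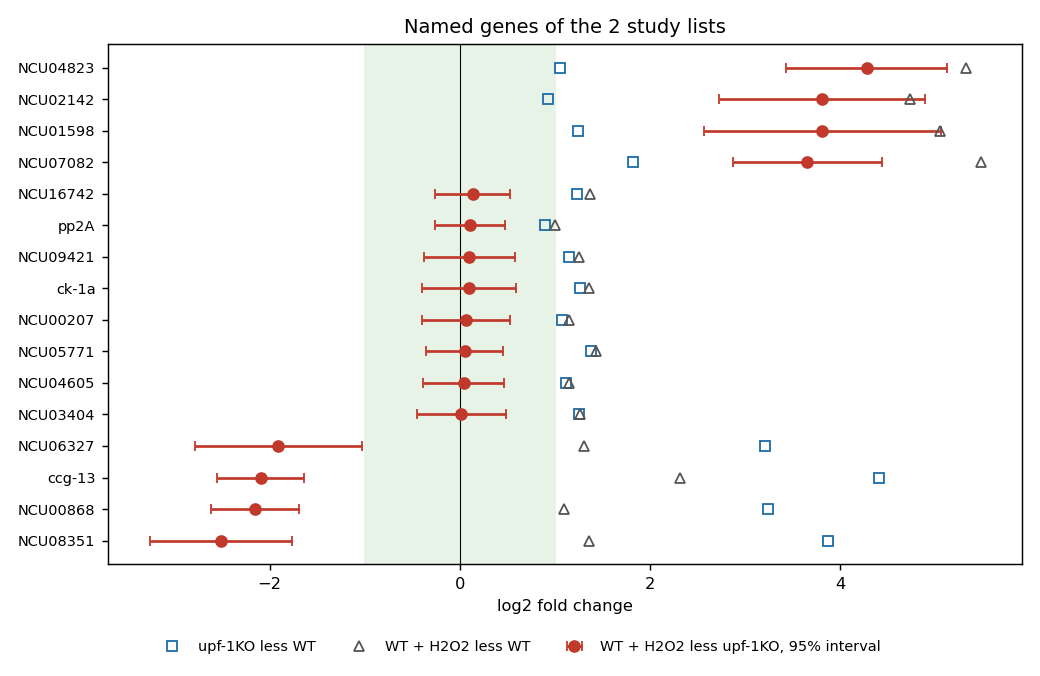
Log2 fold changes of the 16 named genes of the 2 study lists: circles with 95% intervals give H2O2-treated WT less upf-1KO, open squares upf-1KO less untreated WT, and open triangles H2O2-treated WT less untreated WT. The shaded band marks 2-fold; 8 genes from NCU03404 to NCU16742 have their whole interval inside it, 4 lie above it and 4 below it.

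Most transcripts of the wider list that the study found raised in upf-1KO were not as high under peroxide. Of its 996 members tested, 574 were lower in H2O2-treated WT, 89 within 2-fold and 56 higher, beside 26.3%, 21.2% and 19.6% of all genes tested, and the median was 1.14 below that of all genes. The list was chosen for high counts in the same upf-1KO libraries, which by itself places members on the lower side, so its shares are given as a description. Several named genes of other lists belonged to it. pho-2 (NCU01376), an alkaline phosphatase of phosphate acquisition, had 318, 283 and 261 counts in upf-1KO and 49.8, 43.7 and 42.5 in H2O2-treated WT, beside 39.4 to 43.8 in untreated WT. set-6 (NCU09495), a SET-domain histone methyltransferase, had 533, 570 and 564 against 72.9, 90.1 and 62.8, beside 44.6 to 99.1. In both, upf-1KO alone stood apart, with log2 fold changes of −2.66 ± 0.19 and −2.89 ± 0.32 (SE, edgeR adjusted p = 1.7e-06 and 2.5e-05).

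met-5 (NCU07001), a methionine biosynthesis gene, had 2780, 2655 and 2668 counts in upf-1KO and 1258, 502 and 554 in H2O2-treated WT. ro-12 (NCU07196), a ropy gene of dynein-based transport that overlaps another locus, had 697, 744 and 815 against 123, 115 and 105. Both were lower in every peroxide-treated library, by 1.80 and 2.72 on the log2 scale (adjusted p = 0.00025 and 2e-06). Relative to untreated WT under H2O2 their log2 values were −0.08 (adjusted p = 0.83) and −0.02 (adjusted p = 0.95).

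The glutathione S-transferase genes gst-1, gst-2 and gst-4 were higher in H2O2-treated WT than in upf-1KO. Of 15 genes of peroxide and superoxide metabolism, which include the superoxide-producing NADPH oxidase genes nox-1 and nox-2 and their regulator nor-1, 8 were higher in H2O2-treated WT, 1 was lower (cat-4) and 2 were within 2-fold, and the median was 1.32 above that of all genes. Among all genes tested 19.6% were higher, 26.3% lower and 21.2% within 2-fold. With library totals 4 of the 15 were higher and 4 lower, and without replicate 1 of H2O2-treated WT 6 were higher, 1 lower and 5 within 2-fold. The glutathione S-transferase gene gst-1 (NCU05780) had 147, 156 and 172 counts in upf-1KO and 7717, 2342 and 2462 in H2O2-treated WT, where untreated WT had 157 to 226. upf-1KO overlapped untreated WT, and H2O2-treated WT was 26.3-fold above upf-1KO (log2 4.72 ± 0.38 SE, adjusted p = 6.8e-06), or 3.88 on the log2 scale without replicate 1. gst-4 (NCU10521), which overlaps a neighbour, and gst-2 (NCU04109) were higher by 4.18 and 3.94.

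Menadione is a redox-cycling drug that produces superoxide. Of 10 tested genes named for induction by it, 7 were higher in H2O2-treated WT and 1 lower, beside 19.6% and 26.3% of all genes tested. Without replicate 1 of H2O2-treated WT 6 were higher and 1 lower, and with library totals 5 were higher and 1 lower. mig-8 (NCU03369) had 138, 156 and 119 counts in upf-1KO and 14633, 3881 and 4295 in H2O2-treated WT, beside 130 to 200 in untreated WT. upf-1KO overlapped untreated WT and all peroxide-treated libraries were higher, the fold change was 55.1 and the log2 fold change 5.78 ± 0.43 (SE, adjusted p = 5.2e-06), 4.84 without replicate 1. mig-3 and mig-2 were higher by 3.80 and 3.63 on the log2 scale, and mig-12 was lower by 1.08, a call that was lost with RLE factors (−0.93) and with the length trend removed (−0.23).

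Of 17 heat shock proteins and chaperones, 9 were higher in H2O2-treated WT, 2 lower and 2 within 2-fold, beside 19.6%, 26.3% and 21.2% of all genes tested. The list median was 1.25 above that of all genes, and with library totals 5 members were higher and 4 lower. hsp30 (NCU09364), a small heat shock protein whose locus overlaps another, had 127, 120 and 130 counts in upf-1KO and 4367, 1086 and 1413 in H2O2-treated WT. hsp78 (NCU02630), a mitochondrial chaperone of the ClpB type, had 216, 204 and 238 against 2533, 1078 and 1116. Both were higher in every peroxide-treated library, by 4.19 and 2.84 on the log2 scale (adjusted p = 1.5e-05 and 3.7e-05). The 2 genes lower were the heat shock transcription factors hsf-1 (NCU08512) and hsf-2 (NCU08480), by 3.73 and 1.51, the latter −0.78 with the length trend removed. The hsf-1 locus overlaps 2 others, and its counts fell to 53.3, 19.1 and 20.3 from 438, 419 and 405.

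Of 30 proteasome and ubiquitin genes, 10 were higher in H2O2-treated WT (33.3%), 1 lower (3.33%) and 13 within 2-fold (43.3%). Among all genes tested these shares were 19.6%, 26.3% and 21.2%. With library totals none of the 30 was higher and 12 were lower. The polyubiquitin gene ubi (NCU05995) had 5003, 5206 and 5293 counts in upf-1KO and 35398, 15412 and 17882 in H2O2-treated WT, a fold change of 4.43 (adjusted p = 6.8e-05). The core subunit genes pcb-6 and pca-5 were higher by 1.99 and 1.80 on the log2 scale. With library totals the log2 fold changes of ubi, pcb-6 and pca-5 were 0.75, 0.55 and 0.36, all short of 2-fold.

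All 8 genes of cytosolic ribosomal proteins were called higher, and 5 of 8 with library totals, with a median 3.08 above that of all genes and 2.30 above it with the length trend removed. crp-5 (NCU04552) had 8459, 9094 and 8613 counts in upf-1KO, 88273, 133741 and 127778 in H2O2-treated WT and 12658 to 13096 in untreated WT. The 3 groups were apart, and the log2 fold change between the 2 states was 3.74 ± 0.34 (SE, adjusted p = 1.1e-05). crp-4 and the ubiquitin fusion gene ubi::crp-6, which overlaps another locus, were each higher by 3.12. The list holds only the ribosomal protein genes that carry a symbol in the annotation.

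Of 45 nuclear genes of the respiratory chain and ATP synthase, 23 were higher in H2O2-treated WT (51.1%), 1 lower (2.22%) and 15 within 2-fold (33.3%). Among all genes tested these shares were 19.6%, 26.3% and 21.2%, and the list median was 1.22 above all genes. With library totals 2 were higher and 17 lower, and with the length trend removed the median was 0.67 above all genes. The mitochondrial ADP/ATP carrier aac (NCU09477) had 22592, 21501 and 21368 counts in upf-1KO and 122320, 225280 and 209114 in H2O2-treated WT, a fold change of 8.50 (adjusted p = 3.4e-05). Cytochrome c, cyc-1 (NCU01808), and the ATP synthase subunit gene atp-2 (NCU05430) were higher 6.05-fold and by 2.32 on the log2 scale, the latter by 0.87 with library totals.

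Of 56 genes of the mitochondrial genome, 15 passed the filter on low counts. All 15 were higher in H2O2-treated WT, also with library totals and without replicate 1, with a median log2 fold change of 5.33. The 56 genes summed to 136 to 163 normalized counts in upf-1KO and 4668 to 8177 in H2O2-treated WT. Genes so low without H2O2 could pass the filter through the H2O2-treated libraries, so these calls are given as a description. In upf-1KO the level of the 15 was close to that of untreated WT, with a median log2 difference of −0.11. NCU16028 (mitochondrial genome, 59529 to 60281) had 22.2, 35.1 and 31.9 counts in upf-1KO and 1461, 2336 and 1718 in H2O2-treated WT. Transcripts of this genome stayed at 0.0509% of a library or below, and the 5 ribosomal RNA genes tested rose with them. All 212 ribosomal RNA genes summed to 35664 to 39108 normalized counts in upf-1KO and 160010 to 2583800 in H2O2-treated WT. The part of ribosomal RNA carry-over in the result was not tested.

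Of 7 genes of glycolysis and ethanol fermentation, 5 were higher in H2O2-treated WT and 2 within 2-fold. With library totals none was higher and 1 was lower, and without replicate 1 of H2O2-treated WT 3 were higher. The glycolysis gene emp-7 (NCU10042) had 30703, 29524 and 29070 counts in upf-1KO and 192833, 85840 and 82239 in H2O2-treated WT, a fold change of 4.04 (adjusted p = 0.00045), with a log2 value of 0.61 under library totals. acu-6 (NCU09873), phosphoenolpyruvate carboxykinase of gluconeogenesis, went the other way, with 562, 454 and 515 counts in upf-1KO, 99.5, 84.6 and 77.6 in H2O2-treated WT and 161 to 213 in untreated WT. It was above the untreated level in upf-1KO and below it under peroxide, and the log2 fold change was −2.55 ± 0.24 (SE, adjusted p = 9.3e-06).

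Amino acid metabolism was divided. Of 57 genes of cross-pathway control and amino acid biosynthesis, 19 were higher in H2O2-treated WT (33.3%), 4 lower (7.02%) and 22 within 2-fold (38.6%). Among all genes tested these shares were 19.6%, 26.3% and 21.2%. The list median was 0.77 above all genes, and with library totals 3 members were higher and 23 lower. cys-9 (NCU08352), thioredoxin reductase, had 432, 445 and 409 counts in upf-1KO and 4468, 3523 and 3534 in H2O2-treated WT, a fold change of 8.96 (adjusted p = 1.6e-07). cpc-2 (NCU05810), a ribosome-bound WD-repeat protein whose locus overlaps another, was higher by 2.58 on the log2 scale, and pro-1 (NCU06471) of proline synthesis, also an overlapping locus, was lower by 3.01.

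Haem is the cofactor of the catalases. Of 7 genes of its synthesis, 2 were higher in H2O2-treated WT, 1 lower and 1 within 2-fold, beside 19.6%, 26.3% and 21.2% of all genes tested. Uroporphyrinogen-III synthase (NCU02395) had 148, 143 and 154 counts in upf-1KO and 1011, 595 and 726 in H2O2-treated WT, a fold change of 5.24 (adjusted p = 4.1e-05), with a log2 value of 0.98 under library totals. Coproporphyrinogen III oxidase (NCU01546) had 4761, 4829 and 4660 against 13179, 8458 and 8472, higher by 1.08 on the log2 scale with TMM factors and −0.34 with library totals. Both were above upf-1KO in all 3 libraries, but with TMM factors NCU01546 was more than 2-fold above the upf-1KO libraries only in replicate 1.

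5-aminolevulinate synthase (NCU06189), the entry step, was lower by 1.09 (short of 2-fold at −0.97 without replicate 3 of H2O2-treated WT, −0.94 with RLE factors and −0.63 with the length trend removed), and ferrochelatase (NCU08291), the last step, was within 2-fold at −0.52. Porphobilinogen deaminase (NCU10292) and uroporphyrinogen decarboxylase (NCU02771), both overlapping other loci, had log2 values of −0.73 and 0.97 and met neither definition. The value of delta-aminolevulinic acid dehydratase (NCU01013), 0.78 (adjusted p = 0.041), was 0.14 (adjusted p = 0.4) without replicate 1. Its adjusted p was above 0.05 when any library other than replicate 2 or 3 of H2O2-treated WT or replicate 2 of H2O2-treated upf-1KO was left out.

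Of 40 tested genes of plant cell wall and starch degrading enzymes, 24 were lower, 4 higher and 1 within 2-fold, with a median 1.31 below that of all genes and 1.52 below it with the length trend removed. Without replicate 1 of H2O2-treated WT 25 were lower and 2 higher, and with library totals 34 were lower and none higher. Relative to untreated WT the median log2 difference of these genes was 0.98 in upf-1KO and −0.63 under H2O2. The 2 states therefore stood on opposite sides of the untreated median, with each group median computed on the same untreated libraries.

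Among 9 genes of sugar transport and cellulase regulation 4 were lower and 1 higher, and with the length trend removed 2 were lower and 1 higher. cdt-1 (NCU00801), a cellodextrin transporter whose locus overlaps another, had 190, 217 and 172 counts in upf-1KO and 62.2, 62.8 and 62.8 in H2O2-treated WT. cre-1 (NCU08807), the carbon catabolite repressor, had 1302, 1323 and 1284 against 443, 445 and 543. Both were lower in every peroxide-treated library, by 1.62 and 1.45 on the log2 scale (adjusted p = 3.4e-05 and 0.00012), though cdt-1 was at −0.98, short of 2-fold, with the length trend removed. The exception was hgt-1 (NCU10021), a glucose transporter, with 7.65, 6.86 and 7.47 counts in upf-1KO, 49.8, 79.1 and 146 in H2O2-treated WT and 117 to 202 in untreated WT. Its log2 fold change was 3.62 ± 1.07 (SE, adjusted p = 0.012).

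Of 46 tested serine/threonine kinases named stk, 19 were lower, 2 higher and 9 within 2-fold, and without replicate 1 of H2O2-treated WT none was higher. With the length trend removed 9 were lower and 6 higher. Of 20 peroxisome biogenesis genes 8 were lower, none higher and 6 within 2-fold. Of 31 histone modifiers and heterochromatin genes 11 were lower, 4 higher and 3 within 2-fold. The shares lower of kinases, peroxisome genes and histone modifiers were 41.3%, 40% and 35.5%, beside 26.3% of all genes tested. The shares higher were 4.35%, 0% and 12.9%, beside 19.6%. With the length trend removed 6 peroxisome genes were lower and 2 higher, and 7 histone modifiers were lower and 6 higher. The medians of the 3 lists were 0.70, 0.39 and 0.63 below that of all genes, and 0.45, 0.43 and 0.16 below it with the length trend removed.

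Genes of development and the clock were mixed. Of 27 tested conidiation genes 9 were lower (33.3%), 4 higher (15%) and 4 within 2-fold, shares near the 26.3% and 19.6% of all genes tested, and without replicate 1 of H2O2-treated WT 11 were lower and 4 higher. ada-1 (NCU00499), a bZIP transcription factor gene of development that overlaps another locus, had 2381, 2264 and 2384 counts in upf-1KO, 65.8, 43.7 and 35.1 in H2O2-treated WT and 2957 to 3524 in untreated WT, a log2 fold change of −5.59 ± 0.49 (SE, adjusted p = 8.2e-06). eas (NCU08457), the hydrophobin of conidia and aerial hyphae, had 60789, 60303 and 55996 against 9628, 9779 and 9818, or 6.06-fold lower. Only the peroxide-treated libraries were low in both genes.

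ccg-6 (NCU01418), a clock-controlled gene, had 9223, 9346 and 8857 counts in upf-1KO and 88372, 84410 and 80117 in H2O2-treated WT, a fold change of 9.22 (adjusted p = 1.6e-06). Another of these genes, ccg-14 (NCU07787), was above the untreated level in both states, with 8982, 10333 and 10243 counts in upf-1KO, 42591, 30022 and 32320 in H2O2-treated WT and 1872 to 5035 in untreated WT, and its log2 fold change between the 2 states was 1.83, or 0.41 with library totals. Of 27 genes of light response, clock and carotenoids, 6 were lower (22.2%), 2 higher (7.41%) and 7 within 2-fold (25.9%). Among all genes tested these shares were 26.3%, 19.6% and 21.2%. The clock gene frq (NCU02265) had 1463, 1595 and 1646 counts against 315, 251 and 340, a log2 fold change of −2.37 ± 0.43 (SE, adjusted p = 0.00072), and vad-3 (NCU06407) was lower by 3.19.

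Some genes left the untreated level in opposite directions. hak-1 (NCU00790, chromosome I, 7160898 to 7164346), a high-affinity potassium transporter, had 414, 437 and 364 counts in upf-1KO, 15.996, 8.19 and 5.54 in H2O2-treated WT and 35.9 to 70.7 in untreated WT. The 3 groups were apart, and the log2 fold change of −5.31 ± 0.45 (SE, adjusted p = 3.1e-06), a 39.6-fold difference, was composed of 2.94 in upf-1KO and −2.37 under H2O2, both against untreated WT. The counts of hak-1 under H2O2 rest on few reads per library, so the size of its fold change is imprecise. NCU08752, an acetylcholinesterase gene, had 514, 515 and 500 against 40.9, 16.4 and 18.5 counts, with untreated WT at 59.2 to 69.5. NCU06595, described as a vacuolar protein sorting protein and overlapping a neighbour, and NCU03643, a cutinase transcription factor gene, had log2 fold changes of −4.09 and −4.45.

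In the other direction, NCU08720 had 32.7, 27.5 and 40.05 counts in upf-1KO and 2179, 710 and 833 in H2O2-treated WT, with untreated WT at 326 to 347. NCU04496 had 100, 108 and 67.2 against 2783, 2879 and 2372, and NCU14063, a non-coding RNA on chromosome V, had 75.8, 74.0 and 82.8 against 2149, 1935 and 1810. For these genes the peroxide-treated libraries were the highest of the 3 groups and the upf-1KO libraries the lowest, with log2 fold changes of 5.21, 4.86 and 4.66. NCU00995 was higher by 4.13, or 3.35 without replicate 1, and NCU08720 by 4.48 without it.

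Single genes of membrane ion transport also differed between the states. ena-1 (NCU05046), a sodium-exporting ATPase, had 482, 509 and 487 counts in upf-1KO, 4879, 5093 and 5097 in H2O2-treated WT and 4013 to 4257 in untreated WT. Only upf-1KO was low, and the fold change was 10.2 (log2 3.35 ± 0.13 SE, adjusted p = 1.4e-07). The plasma membrane proton pump pma-1 (NCU01680), which overlaps a neighbour, was lower in H2O2-treated WT by 1.18 (−0.41 and no longer called with the length trend removed), with 16534, 15208 and 15052 counts against 5220, 8024 and 7387. Of the 23 genes of this list, 8 were higher, 3 lower and 6 within 2-fold, and with library totals 1 was higher and 10 lower.

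The largest differences among abundant genes without a coordinate overlap were mostly at loci without a named product. On the higher side, NCU16494 (chromosome I, 9423601 to 9424338) had 894, 60.04 and 144 counts in H2O2-treated WT, 1 read in the 3 upf-1KO libraries together and none in untreated WT. Its mean rests mostly on replicate 1, and it could pass the filter on low counts only through H2O2-treated libraries. The difference of NCU16494 is therefore given as a description. NCU06782 (chromosome II, 1950962 to 1952648) had 26.4, 23.6 and 26.5 counts in upf-1KO and 4333, 1346 and 1544 in H2O2-treated WT, a fold change of 93.9 (log2 6.55 ± 0.39 SE, adjusted p = 1.4e-06), 5.77 on the log2 scale without replicate 1. The next were a ribosomal RNA locus (NCU15828), ENSRNA049513425, an identifier not matched in the annotation, and the mitochondrial genes NCU16003 and NCU16028, with log2 fold changes of 6.43, 6.42, 6.20 and 5.94. Replicate 3 of NCU15828 was 105 and replicate 1 2931, so this locus was not at a common level among replicates.

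On the lower side, after hak-1, came NCU07933, with 679, 634 and 586 counts in upf-1KO and 33.8, 27.3 and 11.1 in H2O2-treated WT, close in upf-1KO to the 475 to 607 of untreated WT. NCU16805 (chromosome IV, 3192552 to 3193545), a hypothetical protein, had 223, 246 and 225 against 12.4, 5.46 and 7.39, with untreated WT at 4.61 to 5.40. Its counts in both WT groups rest on few reads per library. NCU16805 was thus high in upf-1KO alone, and NCU07933 was low under peroxide alone. NCU01057, a taurine catabolism dioxygenase gene, and NCU07383 had log2 fold changes of −4.66 and −4.48.

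**Figure D3:**
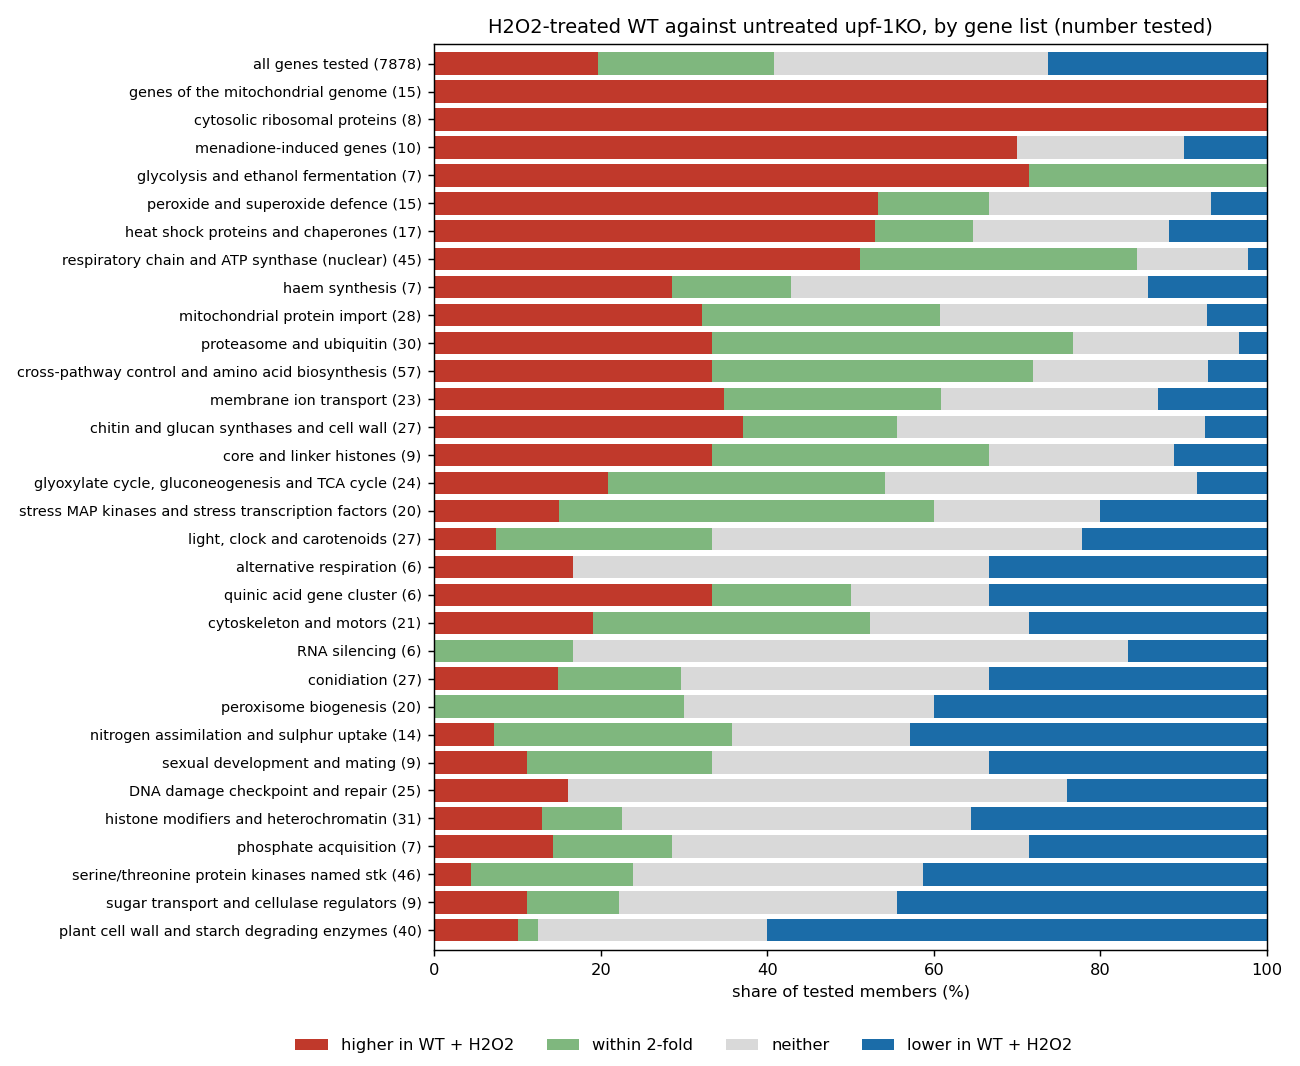
Share of the tested members of each gene list with at least 6 tested genes that was higher in H2O2-treated WT than in upf-1KO, within 2-fold, lower, or neither, ordered by the list's median. All 8 genes of cytosolic ribosomal proteins and all 15 tested genes of the mitochondrial genome are higher, while 24 of 40 plant cell wall and starch degrading enzymes are lower.

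The remaining lists are given by their counts. Among all genes tested 19.6% were higher, 26.3% lower and 21.2% within 2-fold. With all libraries, the shares higher and lower of cytoskeleton and motors and of DNA damage checkpoint and repair were near those of all genes. So was the share higher of the glyoxylate and TCA cycles. Mitochondrial protein import had 9 genes higher, 2 lower and 8 within 2-fold of 28, cell wall synthesis 10, 2 and 5 of 27, and the glyoxylate and TCA cycles 5, 2 and 8 of 24. Stress MAP kinases and stress transcription factors had 3, 4 and 9 of 20, cytoskeleton and motors 4, 6 and 7 of 21, core and linker histones 3, 1 and 3 of 9, and the pentose phosphate pathway 2, 1 and 1 of 5. DNA damage checkpoint and repair had 4, 6 and 0 of 25, nitrogen assimilation and sulphur uptake 1, 6 and 4 of 14, and phosphate acquisition 1, 2 and 1 of 7. RNA silencing had 0, 1 and 1 of 6, sexual development and mating 1, 3 and 2 of 9, the quinic acid cluster 2, 2 and 1 of 6, and alternative respiration 1, 2 and 0 of 6. Of 72 non-coding RNA genes 32 were higher, 6 lower and 3 within 2-fold, with a median 1.08 above all genes and 0.20 above it with the length trend removed, and with library totals 12 were higher and 19 lower. The median of mitochondrial protein import was 0.88 above all genes, and the only translation factor matched, tef-1, met neither definition. Counts of these lists in 1 direction moved by over 1.5 times when single libraries were left out: phosphate acquisition had 4 genes lower and none higher without replicate 1 of H2O2-treated WT, cell wall synthesis 4 lower without the same library or without replicate 1 or 3 of H2O2-treated upf-1KO, and DNA repair 10 lower without either of the latter. The glyoxylate and TCA cycle genes had 4 lower without replicate 2 of H2O2-treated WT, and some lists under 10 genes moved by 1 gene. The 4 genes of nitrogen assimilation and sulphur uptake within 2-fold were 2 or fewer without any single upf-1KO or H2O2-treated WT library.

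The direct difference followed gene length. Genes higher in H2O2-treated WT had a median exon length of 1577 bases, genes within 2-fold 2346 and genes lower 2667. When genes were cut by length into 5 groups of near-equal size, in the shortest (105 to 1439 bases) the median log2 fold change was 0.67 and 40.96% were higher, and in the longest (3348 to 33355 bases) it was −0.77 and 4.82% were higher. Across the 7878 genes, Spearman's rho with exon length was −0.33, a description across genes that share the same libraries. Against untreated WT the medians of the shortest and the longest group were 0.00 and −0.24 in upf-1KO, and 0.89 and −0.95 under H2O2. Its part in the results above was not tested beyond the values given with the length trend removed. The share within 2-fold was 11.6% in the shortest group and 22.8% to 24.1% in the others.

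**Figure D4:**
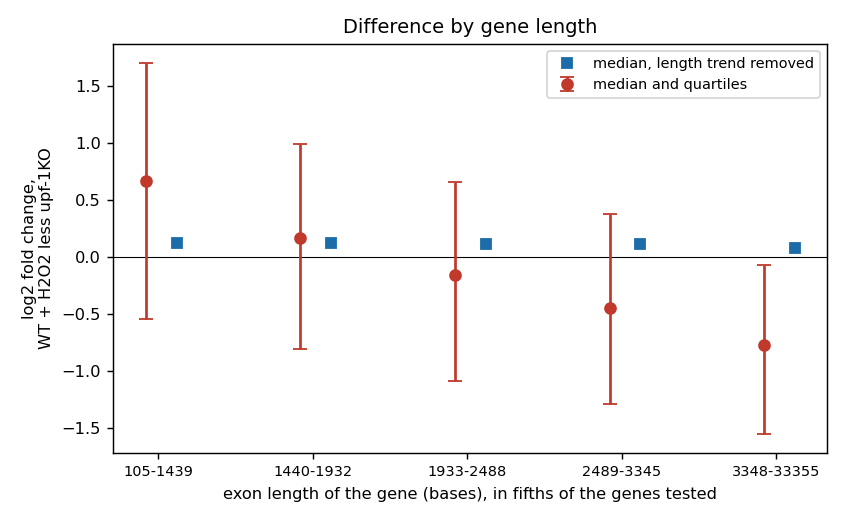
Median and quartiles of the log2 fold change (H2O2-treated WT less upf-1KO) in 5 groups of the 7878 genes tested by exon length in bases, with the median after removal of the length trend as squares. The median falls from 0.67 in the shortest group to −0.77 in the longest, and lies between 0.08 and 0.13 in all 5 once the trend is removed.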

How the data were processed

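RNA-seq was done on 12 mycelial libraries, 3 for each of 4 groups. Per the paper's methods and the submitters' processing notes, reads were aligned with HISAT2 2.2.1 to NC12 and counted per gene with featureCounts of Subread 2.0.1. The strand setting was not given in the sources used here. The authors deposited read counts per gene, exon lengths and FPKM values. The deposited FPKM values equal counts scaled by length and library total, and they were not used further.

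Counts were fitted with edgeR 4.0.16 in R 4.3.3: filterByExpr, TMM factors, glmQLFit over all 12 libraries with 1 mean per group, and glmQLFTest. A gene was called at a log2 fold change past 1 and an unadjusted p below 0.05, the threshold of the study, and named genes by Benjamini-Hochberg adjusted p. The 95% interval is a t interval of the unshrunk log2 fold change. Normalized counts are counts per effective library size, scaled to the mean size. The counting model was tested on simulated data. Intervals and floors for single libraries cover counting error only. DESeq2 1.42.0 was an alternative.

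Of 10685 identifiers, 10588 matched RefSeq (NC12) and 1118 of these had a symbol. Lists were matched by symbol or locus, and products not in the annotation were taken from the study's tables. Named genes were those with the largest changes without overlap between groups, the narrowest bounds and largest changes in the study's lists, the largest opposite changes, genes the study describes, and up to 3 with the largest change in each direction in each list. Of the latter, many are not named, and genes of low counts or whose direction changed between scalings were among those left out after their values were seen, so the named genes of the lists are more stable than their lists; the counts cover all tested members. The list members, lists and rules were chosen with earlier results of these data known. Same-numbered replicates were not paired by the labels. Promoter sequences were not analysed here.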

Additional observations from a re-analysis of the deposited data

How the results depend on the processing

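Scaling had the largest effect. With library totals, 332 genes were higher in H2O2-treated WT, 5136 lower and 885 within 2-fold. With library totals without ribosomal RNA genes these were 371, 4880 and 1017, and in the 6 libraries alone with library totals 318, 5119 and 926; these last 2 settings, and the removal of ribosomal RNA genes before TMM scaling, were chosen after seeing the data. H2O2-treated WT against untreated WT then gave 377 higher and 4606 lower (425 and 4361 without ribosomal RNA genes), and upf-1KO against untreated WT 130 lower (133). A bound of 1.5-fold left 335 genes within it. For upf-1KO against untreated WT, at least 10 counts in every library gave 462 higher and 109 lower, and a test against 2-fold 522 and 109. Leaving out 1 library gave 1442 to 1579 genes higher, 2008 to 2252 lower and 1300 to 2309 within 2-fold, 786 to 996 and 167 to 235 for upf-1KO against untreated WT, and 1480 to 1675 and 1689 to 2046 for H2O2-treated WT against it. The replicate block gave 1510 higher and 2102 lower. The 3 pairs of same-numbered libraries had deviations correlated by −0.01, −0.01 and 0.00. These values showed no pairing across all genes, but cannot exclude a weak one or one limited to some genes. The length correction moved the share of higher among called genes from 42.7% to 54.2%.

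With library totals, library totals without ribosomal RNA genes and the 6 libraries with library totals, cat-1 reversed to −0.26, −0.14 and −0.26, NCU01013 to −0.63, −0.51 and −0.63, NCU02771 to −0.49, −0.37 and −0.49, and NCU01546 to −0.34, −0.22 and −0.34. With the length trend removed, upf-2 was 0.18, and these medians relative to all genes changed sign: NMD factors 0.075, cytoskeleton and motors 0.015, histones −0.21, RNA silencing 0.36, the study's list not further raised −0.37 and both its lists −0.045. The cause was not tested beyond the construction of each alternative. Depth limits genes of few counts, such as NCU16494.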

Other observations

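Apart from the comparison, 4 loci had at most 3 reads in each of the 6 WT libraries and at least 10 in each of the 6 upf-1KO libraries. NCU04490 (chromosome IV, 3194091 to 3195492), which lies beside NCU16805, had 39 to 43 reads in untreated and 15 to 27 in H2O2-treated upf-1KO. NCU04939 (chromosome IV, 804073 to 805723) had 26 to 35 and 13 to 30, NCU05728 (chromosome III, 665622 to 666576) 11 to 18 and 11 to 12, and NCU08188 (chromosome VII, 3676229 to 3677961) 23 to 42 and 19 to 41. Whether these follow the loss of upf-1 or the background of the strain cannot be told apart here.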
